A study of Mus musculus with 8 samples.

Results

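The 10 genes described here are core components and direct outputs of the circadian clock, namely Per1, Per2, Per3, Dbp, Nr1d1, Nr1d2, Ciart, Arntl, Npas2 and Cry1. They were found by gene symbol in the count tables, and all 10 were among the 18957 genes listed and among the 13036 genes tested. The genes were chosen with their difference between the genotypes already known, so their levels and fold changes are given as a description, without p-values. RNA was sequenced from PDGFRA-positive cells sorted from the ventricles of 4 wild type (WT) mice and 4 Pdgfra-Cre:LmnaF/F mice, as 1 library per mouse. The mice were 3 to 4 weeks old and of the strain labelled C57BL/6 (mixed). The WT littermates carried wild type alleles only, and the Pdgfra-Cre:LmnaF/F mice carried floxed Lmna on both alleles and a Pdgfra-Cre transgene.

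Several features of the model and the sort bear on these values. According to the study, the Pdgfra locus is active in a few cardiac myocytes during development but not in the adult heart. Lmna was thus also deleted in some myocytes, and some PDGFRA-positive cells retained LMNA. No Pdgfra-Cre libraries without floxed Lmna were analysed here, so effects of the deletion and of Cre cannot be told apart. The mice lived under a light and dark cycle, and the hour at which each heart was taken is not given in the sources used here, so no library can be placed on that cycle. Each library is RNA of many cells, and a lower level in all cells cannot be told apart from fewer cells that express the gene.

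The circadian clock of mammalian cells is a transcriptional feedback loop. A dimer of BMAL1, the product of Arntl, with CLOCK or its paralog NPAS2 activates genes through E-boxes, and the PER and CRY proteins made from those genes repress the dimer. The nuclear receptors encoded by Nr1d1 and Nr1d2 repress Arntl, Npas2 and Cry1 through ROR elements, so that in most tissues the transcripts of Per, Dbp and Nr1d genes peak when those of Arntl and Npas2 are low. Cardiac cells, fibroblasts included, run this clock in the intact heart, where glucocorticoids and feeding help to set its phase. Per1, Per2, Per3, Dbp, Nr1d1, Nr1d2 and Ciart are called the E-box group below, and Arntl, Npas2 and Cry1 the ROR group.

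Promoter windows of RefSeq (GRCm38.p6), from 250 bases before to 50 bases after each gene start, were found for 9 of the 10 genes, in 11 windows, Per2 being the gene without one. They were searched on both strands for the letters of the E-box (CACGTG), the E'-box (CACGTT), the D-box (TTATGTAA, TTACGTAA or TTATATAA), the ROR element (TAGGTCA or TGGGTCA) and the cAMP response element (TGACGTCA). Stretches of the windows that hold such letters are shown 5′ to 3′ on the strand of the gene, with the matching letters in capitals, because they are the sequences through which this loop is known to work. The Ciart stretch (chr3:95882252-95882478, minus strand) holds 3 E-boxes, the Per1 stretch (chr11:69098699-69098947, plus strand) holds 1, and the Cry1 stretch (chr10:85185065-85185304, minus strand) holds an E'-box, read as AACGTG on this strand, and an E-box. The Per3 stretch (chr4:151044666-151044915, minus strand) holds 2 D-boxes, to which DBP, TEF and HLF are known to bind. The Nr1d1 stretch (chr11:98775378-98775627, minus strand) holds an E'-box, also read as AACGTG. All 5 of these stretches lie outside GENCODE exons. The Per1 stretch, placed by the RefSeq start, lies within the span of the gene in GENCODE (chr11:69095217-69109960), and the others lie before their genes. The short Arntl stretch (chr7:113207532-113207556, plus strand) lies within an exon and holds a ROR element.
Ciart: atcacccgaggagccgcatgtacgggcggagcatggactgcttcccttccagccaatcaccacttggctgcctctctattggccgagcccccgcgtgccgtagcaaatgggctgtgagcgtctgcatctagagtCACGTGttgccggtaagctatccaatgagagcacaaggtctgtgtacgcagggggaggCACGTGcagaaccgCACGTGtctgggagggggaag
Per1: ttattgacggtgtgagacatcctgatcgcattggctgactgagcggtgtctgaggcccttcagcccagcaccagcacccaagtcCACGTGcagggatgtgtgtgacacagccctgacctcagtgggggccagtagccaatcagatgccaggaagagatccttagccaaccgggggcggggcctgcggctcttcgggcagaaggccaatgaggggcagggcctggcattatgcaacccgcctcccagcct
Cry1: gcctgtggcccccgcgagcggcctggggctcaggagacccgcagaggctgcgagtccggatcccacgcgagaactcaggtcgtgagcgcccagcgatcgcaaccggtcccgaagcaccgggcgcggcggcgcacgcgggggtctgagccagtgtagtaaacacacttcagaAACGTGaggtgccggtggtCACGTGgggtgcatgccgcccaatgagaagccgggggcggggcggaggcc
Per3: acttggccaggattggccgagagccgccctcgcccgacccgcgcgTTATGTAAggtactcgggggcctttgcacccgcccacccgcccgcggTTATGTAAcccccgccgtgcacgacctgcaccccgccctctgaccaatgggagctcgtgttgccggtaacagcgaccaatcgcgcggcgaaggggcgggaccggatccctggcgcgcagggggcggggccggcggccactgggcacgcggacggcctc
Nr1d1: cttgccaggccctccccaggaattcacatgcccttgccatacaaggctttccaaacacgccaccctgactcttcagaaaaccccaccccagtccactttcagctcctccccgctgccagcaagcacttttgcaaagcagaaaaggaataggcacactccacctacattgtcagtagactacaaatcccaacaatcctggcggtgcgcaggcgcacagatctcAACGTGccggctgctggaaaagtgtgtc
Arntl: ggcagaaagTAGGTCAgggacggag

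Among all 32851 windows, 7.15% held an E-box, 4.685% an E'-box, 1.586% a D-box, 6.453% a ROR element and 1.79% a cAMP response element. Of the 11 windows of the clock genes, 3 (of Per1, Ciart and Cry1) held an E-box, 2 (of Nr1d1 and Cry1) an E'-box, 1 (of Per3) a D-box, 1 (of Arntl) a ROR element and 0 a cAMP response element. Measured from the RefSeq start, the E-boxes of Ciart began at -116, -58 and -44, that of Per1 at -166 and that of Cry1 at -60. The E'-boxes of Nr1d1 and Cry1 began at -28 and -79. The D-boxes of Per3 began at -205 and -158, and the ROR element of Arntl at 30, inside the transcript. Cry1, placed in the ROR group, thus held E-box letters in its window, as did Per1 and Ciart. These matches describe letters in short windows and do not show binding.

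Total counts lay between 2080555, in WT replicate 2, and 12502949, in Pdgfra-Cre:LmnaF/F replicate 4. Levels are CPM, that is, counts scaled to library size, here with TMM factors, and log2 fold changes of Pdgfra-Cre:LmnaF/F against WT are from the quasi-likelihood fit of edgeR with their standard errors (SE). Means are given with the SD over 4 libraries. Lmna, the targeted gene, stood at 331, 274, 483 and 374 CPM in WT replicates 1 to 4 and at 126, 97.4, 130 and 90.4 CPM in Pdgfra-Cre:LmnaF/F replicates 1 to 4, with a log2 fold change of -1.72 (SE 0.22) and an adjusted p of 0.00492. Over all genes tested the median log2 fold change was 0.02, and 53 genes, 0.407% of those tested, had an adjusted p under 0.05 and are referred to as called. The summed level of 8 fibroblast markers was 82819 to 96809 CPM in WT and 80941 to 93525 CPM in Pdgfra-Cre:LmnaF/F, so the ranges of the labelled cell type overlapped. Pdgfra-Cre:LmnaF/F replicate 4 stood apart by its summed level of 8 cardiac myocyte markers, which was 5699 CPM against 296 to 1020 CPM in the other 7 libraries. WT replicate 2 stood apart by its depth, and values without each of these libraries are given below.

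Gene positions are those of GENCODE M21 on mm10. The Per genes encode the negative limb of the clock. Per3 (chr4:151003652-151044665) was at 37.9, 67.4, 19.8 and 30.96 CPM in WT replicates 1 to 4 and at 170.2, 73.0, 150.0 and 149 CPM in Pdgfra-Cre:LmnaF/F replicates 1 to 4. Each Pdgfra-Cre:LmnaF/F library lay above each WT library, although Pdgfra-Cre:LmnaF/F replicate 2 came close to WT replicate 2. The means were 39.0 ± 20.3 and 136 ± 42.8 CPM, a difference of 3.55-fold (log2 fold change 1.83, SE 0.35). Per2 (chr1:91415982-91459324), a paralog of Per3, was at 15.1, 64.9, 16.6 and 19.1 CPM in WT and at 73.3, 32.7, 74.4 and 96.1 CPM in Pdgfra-Cre:LmnaF/F. WT replicate 2 stood far above the other WT libraries and exceeded Pdgfra-Cre:LmnaF/F replicate 2, so the groups overlapped, and 15 of the 16 pairs of a Pdgfra-Cre:LmnaF/F with a WT library had the former higher. The Per2 means were 28.9 ± 24.0 and 69.1 ± 26.4 CPM (2.49-fold, log2 fold change 1.32, SE 0.45). Without WT replicate 2 the log2 fold change of Per2 was 2.02 and Per2 was called.

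Per1 (chr11:69095217-69109960), which besides its E-boxes responds acutely to glucocorticoids and cAMP, had the widest spread of the Per genes in Pdgfra-Cre:LmnaF/F in absolute level. It was at 108, 169.6, 50.01 and 106 CPM in WT and at 107, 82.0, 269 and 381 CPM in Pdgfra-Cre:LmnaF/F. Only replicates 3 and 4 of Pdgfra-Cre:LmnaF/F exceeded all WT libraries, and 11 of 16 pairs had the Pdgfra-Cre:LmnaF/F library higher. The log2 fold change was 0.96 (SE 0.44), and it was 0.50 without Pdgfra-Cre:LmnaF/F replicate 4.

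Dbp (chr7:45705088-45710203) encodes a PAR bZIP activator that binds D-boxes and is among the genes with the deepest daily rhythm. It was at 39.9, 71.4, 7.99 and 41.7 CPM in WT and at 327, 106, 69.8 and 249 CPM in Pdgfra-Cre:LmnaF/F. The groups met at a single pair, Pdgfra-Cre:LmnaF/F replicate 3 lying just below WT replicate 2. The means were 40.3 ± 25.9 and 188 ± 121 CPM, 4.77-fold apart (log2 fold change 2.26, SE 0.54). Ciart (chr3:95878503-95882251), which encodes a repressor of the BMAL1 dimer, was the least abundant of the 10 genes and varied most. Its counts were 25, 8, 12 and 17 in WT and 94, 0, 46 and 387 in Pdgfra-Cre:LmnaF/F, or 2.34, 4.03, 1.92 and 1.76 CPM against 9.72, 0, 5.30 and 32.2 CPM. The 0 of Pdgfra-Cre:LmnaF/F replicate 2 allows up to 0.313 CPM, taken as 3 counts, so this library was the lowest of all while 3 others of its group were the highest of all. The fitted log2 fold change of 2.29 (SE 1.09) was 1.02 without Pdgfra-Cre:LmnaF/F replicate 4.

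Nr1d1 and Nr1d2 encode REV-ERBα and REV-ERBβ, the repressors that bind ROR elements. Nr1d2 (chr14:18204054-18239127) was at 91.5, 104, 79.4 and 94.2 CPM in WT and at 323, 214, 159 and 179 CPM in Pdgfra-Cre:LmnaF/F. Relative to their level the WT libraries lay closer together than for any other of the 10 genes, and each Pdgfra-Cre:LmnaF/F library lay above them. The means were 92.2 ± 9.99 and 219 ± 72.7 CPM, 2.38-fold apart (log2 fold change 1.25, SE 0.23). Nr1d1 (chr11:98767932-98775333) was at 174, 158, 74.5 and 209 CPM in WT and at 254, 137, 113 and 359.7 CPM in Pdgfra-Cre:LmnaF/F. Here the groups overlapped widely, with 10 of 16 pairs higher in Pdgfra-Cre:LmnaF/F, and the log2 fold change of 0.49 (SE 0.36) was 0.13 without Pdgfra-Cre:LmnaF/F replicate 4. The paralogs therefore differed in spread as well as in the size of the difference, although the difference between them was not tested.

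Of the ROR group, Arntl (chr7:113207465-113314126), the clock gene whose product is needed for the loop to run, was at 97.6, 57.9, 162 and 99.5 CPM in WT and at 14.5, 52.8, 49.8 and 39.5 CPM in Pdgfra-Cre:LmnaF/F. Each Pdgfra-Cre:LmnaF/F library lay below each WT library, but WT replicate 2 and Pdgfra-Cre:LmnaF/F replicate 2 were close to each other. The means were 104 ± 43.1 and 39.1 ± 17.4 CPM, 2.68-fold lower in Pdgfra-Cre:LmnaF/F (log2 fold change -1.42, SE 0.37). Npas2 (chr1:39193731-39363236), which can take the place of CLOCK in the dimer, was at 77.3, 50.3, 58.3 and 82.0 CPM in WT and at 18.0, 38.5, 18.0 and 24.3 CPM in Pdgfra-Cre:LmnaF/F. Again no library of one group reached the other, and the means of 67.0 ± 15.1 and 24.7 ± 9.67 CPM were 2.72-fold apart (log2 fold change -1.44, SE 0.29). Cry1 (chr10:85131700-85185064), a repressor that peaks late in the cycle, was at 22.0, 11.6, 19.97 and 12.1 CPM in WT and at 12.4, 19.0, 36.7 and 11.8 CPM in Pdgfra-Cre:LmnaF/F. It did not share the direction of Arntl and Npas2, with a log2 fold change of 0.27 (SE 0.42) that was -0.20 without Pdgfra-Cre:LmnaF/F replicate 3.

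**Figure D1:**
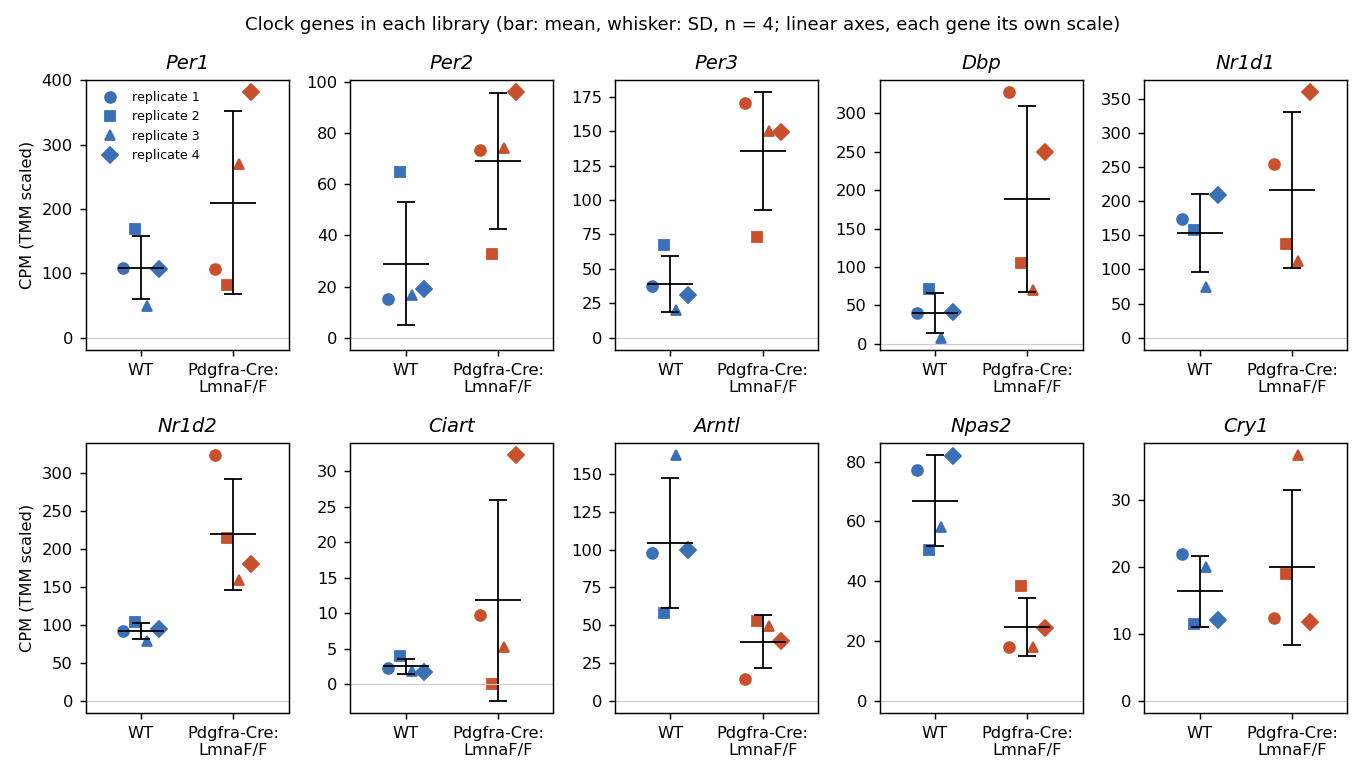
Level of each of the 10 clock genes (TMM-scaled CPM, linear axes, each gene on its own scale) in 4 WT (blue) and 4 Pdgfra-Cre:LmnaF/F (orange) libraries, with marker shapes for the replicate numbers, a bar at the mean and whiskers of 1 SD. The groups do not overlap for Per3 and Nr1d2, which are higher in Pdgfra-Cre:LmnaF/F, nor for Arntl and Npas2, which are lower.

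Of the 10 genes, 3 were called, Per3 and Nr1d2 as higher and Npas2 as lower, where 0.407% of all genes tested were called, 0.169% as higher and 0.238% as lower. The groups did not overlap for 4 of the 10, Per3 and Nr1d2 being higher and Arntl and Npas2 lower, where this was so for 8.03% of all genes tested, 4.06% as higher and 3.97% as lower. The fitted difference was at least 2-fold higher for 5 of the 10 and at least 2-fold lower for 2, where 6.88% of all genes tested were at least 2-fold higher and 5.16% at least 2-fold lower. Since the genes were chosen on this contrast, nothing is read from these shares. All 7 genes of the E-box group were higher in Pdgfra-Cre:LmnaF/F, with a median log2 fold change of 1.32, and 2 of the 3 genes of the ROR group were lower, with a median of -1.42. Leaving out WT replicate 2 alone gave log2 fold changes of 1.24 for Per1, 2.19 for Per3, 2.64 for Dbp, 0.50 for Nr1d1, 1.30 for Nr1d2, 2.55 for Ciart, -1.62 for Arntl, -1.56 for Npas2 and 0.14 for Cry1, and Per2 and Per3 were called. Leaving out WT replicate 3 alone gave 0.72 for Per1, 1.13 for Per2, 1.602 for Per3, 1.90 for Dbp, 0.25 for Nr1d1, 1.18 for Nr1d2, 2.19 for Ciart, -1.13 for Arntl, -1.51 for Npas2 and 0.37 for Cry1. Leaving out WT replicate 2 and Pdgfra-Cre:LmnaF/F replicate 4 together, a choice made after the data were seen, gave log2 fold changes of 2.14 for Per3, 1.39 for Nr1d2, 2.47 for Dbp, 1.83 for Per2, -1.62 for Arntl and -1.55 for Npas2, but 0.79 for Per1, 0.14 for Nr1d1 and 1.31 for Ciart. In that fit Per3 and Nr1d2 were called and Npas2 was not. With other methods 6 of the 10 were called by limma-voom and by edgeR without the filter, which both added Per2, Dbp and Arntl, 4 by DESeq2, which added Arntl, and 2 with upper-quartile factors. Of all genes tested these called 0.967% (limma-voom), 1.45% (no filter), 2.15% (DESeq2) and 0.384% (upper-quartile factors). Leaving out 1 library at a time, Per3 was called in 3 of 8 fits, Nr1d2 in 2 and Npas2 in 1, and none of the 10 genes was called without WT replicate 1, WT replicate 3, WT replicate 4 or Pdgfra-Cre:LmnaF/F replicate 1.

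**Figure D2:**
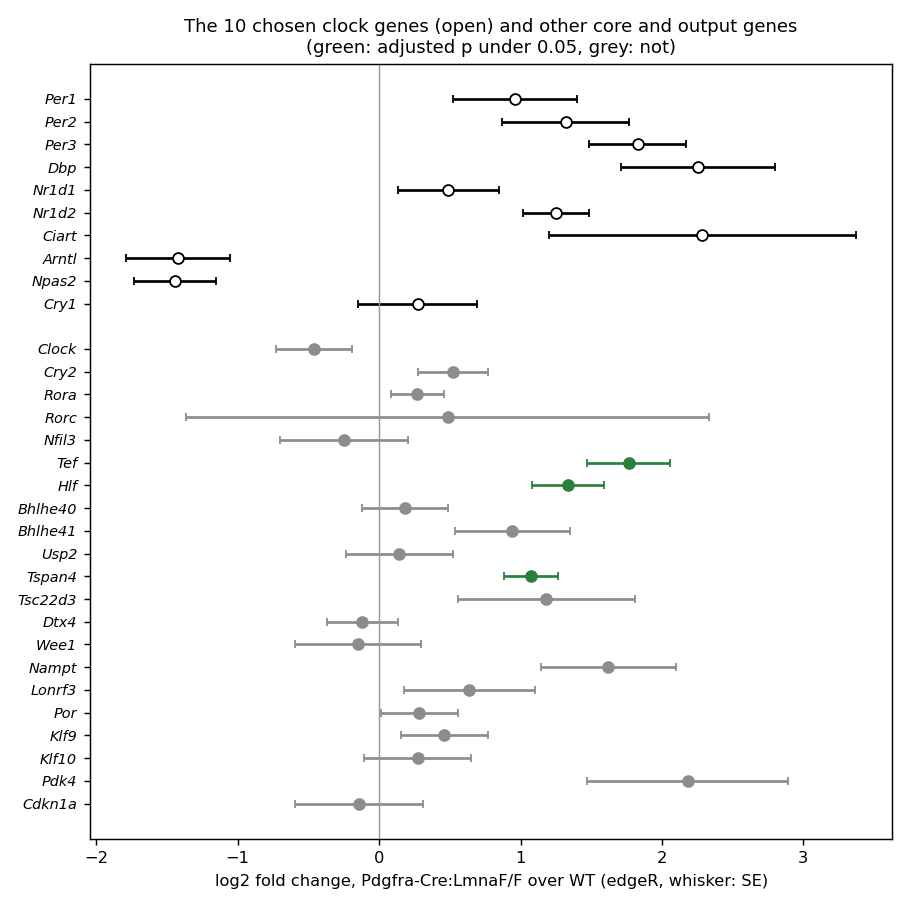
Log2 fold change (Pdgfra-Cre:LmnaF/F against WT, edgeR) with whiskers of 1 SE for the 10 clock genes (open circles) and for the tested genes of the further core and output lists, in green where the adjusted p is under 0.05 and in grey otherwise. Arntl and Npas2 lie left of 0 at -1.42 and -1.44, the E-box group lies to the right of 0, and Tef, Hlf and Tspan4 are the green points.

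Expressed per kilobase of merged exon, so that genes can be compared with each other, Nr1d1 had the highest WT level at 49.96 CPM per kb, followed by Per1 at 19.3, Nr1d2 at 17.0, Npas2 at 14.0, Arntl at 13.9 and Dbp at 13.5. Per2, Cry1 and Per3 were at 4.94, 4.91 and 4.06 CPM per kb and Ciart at 1.11. Npas2, Arntl and Dbp thus stood at nearly the same WT level. In Pdgfra-Cre:LmnaF/F the order was Nr1d1 at 70.2, Dbp at 62.8, Nr1d2 at 40.5 and Per1 at 37.3 CPM per kb, with Per3 at 14.1, Per2 at 11.8, Cry1 at 5.98, Ciart at 5.23, Arntl at 5.20 and Npas2 at 5.15. Neighbours in these orders were not tested against each other. Dbp and Nr1d1 overlap Sphk2 and Thra on the opposite strand, and an antisense transcript overlaps Arntl. The library kit marks strand, but the strand setting of the counting is not given in the sources used here. Sphk2 and Thra had log2 fold changes of 0.50 (adjusted p = 0.612) and -0.57 (adjusted p = 0.266) by edgeR, and reads shared with these genes were not separated.

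To set both groups of clock genes against each other in each library, a clock contrast was computed as the mean log2 CPM (prior count 2) of the 7 E-box group genes minus that of the 3 ROR group genes. It was -0.56, 0.94, -1.46 and -0.31 in WT replicates 1 to 4 and 2.998, 0.21, 1.31 and 2.83 in Pdgfra-Cre:LmnaF/F replicates 1 to 4. The contrast was lowest in WT replicate 3 and highest in Pdgfra-Cre:LmnaF/F replicate 1, and the groups overlapped because WT replicate 2 lay above Pdgfra-Cre:LmnaF/F replicate 2. The means were -0.35 ± 0.99 and 1.84 ± 1.32, a difference of 2.18 log2 units. The E-box group mean was 4.39 to 5.97 log2 CPM in WT and 5.30 to 7.34 in Pdgfra-Cre:LmnaF/F, and the ROR group mean was 5.03 to 5.85 in WT and 3.91 to 5.09 in Pdgfra-Cre:LmnaF/F. WT replicate 2 was the library with the fewest counts, and thinning all libraries to its depth gave a difference of 2.40. Leaving out 1 library at a time gave differences from 1.80 to 2.73, and leaving out WT replicate 2 and Pdgfra-Cre:LmnaF/F replicate 4 together gave 2.28. Without Ciart, the gene with a library at 0, the difference was 2.26, and without Cry1 it was 2.74, both also computed after the data were seen.

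**Figure D3:**
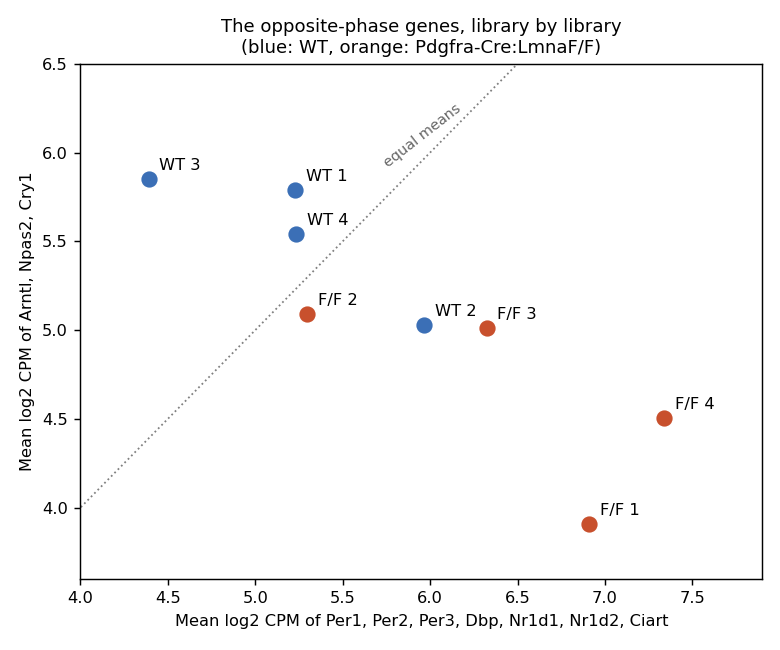
Mean log2 CPM of the 7 E-box group genes (horizontal axis) against that of the 3 ROR group genes (vertical axis), 1 point per library, blue for WT and orange for Pdgfra-Cre:LmnaF/F (F/F), with a dotted line where both means are equal. WT replicates 1, 3 and 4 lie above the line and the other 5 libraries below it, WT replicate 2 lying between Pdgfra-Cre:LmnaF/F replicates 2 and 3.

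The libraries of a genotype also differed from one another in how many of the genes were high, although counts against the mean over all 8 libraries include the difference between the genotypes. In WT replicate 3, 0 of the 7 E-box group genes and all 3 ROR group genes lay above their own mean over the 8 libraries. WT replicate 2 had 4 of 7 and 1 of 3 above, and so differed from the other WT libraries, with 1 of 7 in each of WT replicates 1 and 4. Among the Pdgfra-Cre:LmnaF/F libraries, replicates 1 and 4 had 6 and 7 of the 7 E-box group genes above their mean and 0 of the 3 ROR group genes, and replicate 3 had 5 and 1. Pdgfra-Cre:LmnaF/F replicate 2 had 3 of 7 and 1 of 3 above, close to WT replicate 2.

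**Figure D4:**
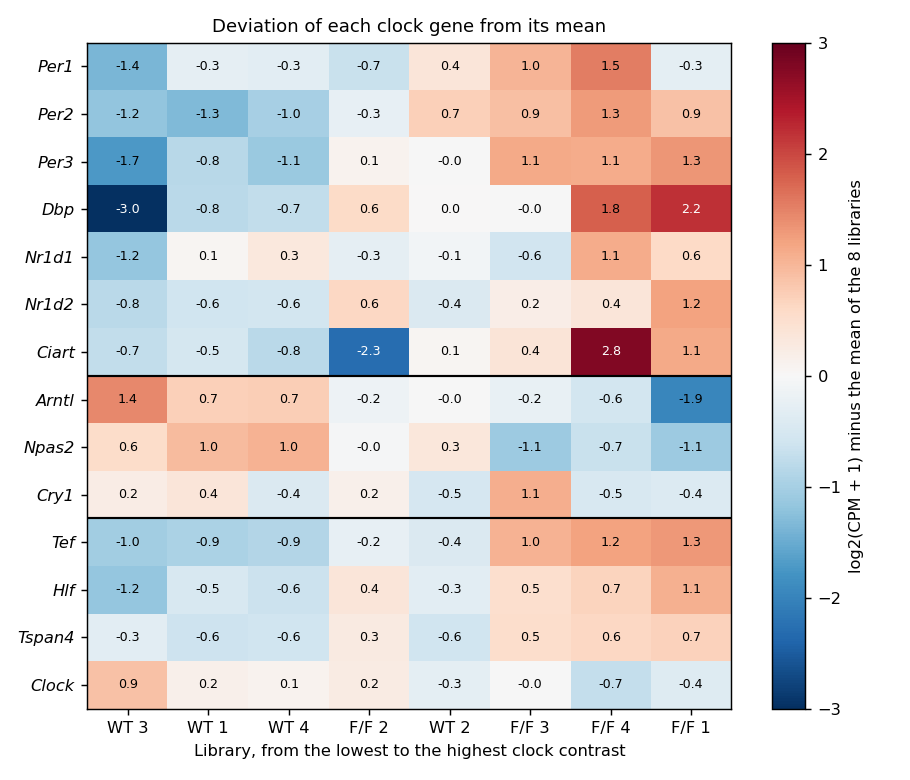
Deviation of each clock gene (rows) in each library (columns, from the lowest to the highest clock contrast; F/F stands for Pdgfra-Cre:LmnaF/F) from the mean of that gene over the 8 libraries, in log2(CPM + 1), with red above and blue below the mean and lines that part the E-box group, the ROR group and 4 further clock genes. In Pdgfra-Cre:LmnaF/F replicate 4 all 7 E-box group genes lie above and all 3 ROR group genes below their means, and WT replicate 3 shows the reverse in all 10 genes.

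After the mean of each genotype was subtracted, the genes still moved in opposed groups across the 8 libraries. Of the 21 pairs within the E-box group, 19 correlated positively, with a median Pearson r of 0.54, and of the 21 pairs across the groups 20 correlated negatively, with a median of -0.55. The highest r within the E-box group was 0.87, for Dbp with Nr1d1, and the lowest across the groups was -0.86, for Nr1d2 with Arntl. Within the ROR group 2 of 3 pairs were positive, with a median of 0.46. Per1 and Nr1d2 were an exception, with an r of -0.34 although both belong to the E-box group. These values are a description over 8 libraries that share depth and preparation with all genes in them, and Ciart, at 0 in a library, adds sparse counts to its pairs.

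The other genes of the pathway were taken from 3 lists with 33 genes, of which 31 were tested. In these, 3 genes were called, all of them higher in Pdgfra-Cre:LmnaF/F, the direction in which 0.169% of all genes tested were called. Like the 10 genes, these lists and those used below were chosen with earlier results of these data known. Their calls and adjusted p-values are therefore a description, and nothing is read from their shares. Of the further core and loop genes, 9 of 10 were tested, 7 were higher and 2 lower, 2 were called, and the median log2 fold change was 0.48. Those called were Tef and Hlf, which with Dbp make up the PAR bZIP family of D-box activators. Tef was at 86.5, 124, 80.8 and 90.1 CPM in WT and at 414, 141, 344 and 391 CPM in Pdgfra-Cre:LmnaF/F, and rose 3.40-fold (log2 fold change 1.76, SE 0.29, adjusted p = 0.0221). Hlf was at 32.1, 36.2, 19.8 and 29.0 CPM in WT and at 96.3, 59.1, 65.0 and 73.5 CPM in Pdgfra-Cre:LmnaF/F, and rose 2.52-fold (log2 fold change 1.34, SE 0.25, adjusted p = 0.0368). For both, as for Dbp and Per3, Pdgfra-Cre:LmnaF/F replicate 2 was at or near the low end of its group, and for both the groups did not overlap. Over the alternatives the adjusted p of Tef ran up to 0.0709 and that of Hlf up to 0.119. Leaving out 1 library at a time, Tef was not called without WT replicate 1, 3 or 4 or without Pdgfra-Cre:LmnaF/F replicate 3, and Hlf was called only without Pdgfra-Cre:LmnaF/F replicate 4.

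Clock, whose product pairs with BMAL1, and Cry2, the paralog of Cry1, which were named after their values were seen, did not pass the test. Clock was at 149, 108, 249 and 145 CPM in WT and at 102, 158, 134 and 81.7 CPM in Pdgfra-Cre:LmnaF/F (log2 fold change -0.46, adjusted p = 0.5503). Cry2 was at 58.6, 45.8, 59.4 and 54.4 CPM in WT and at 77.8, 53.4, 65.5 and 117 CPM in Pdgfra-Cre:LmnaF/F (log2 fold change 0.52, adjusted p = 0.433). Bhlhe41, which encodes the repressor DEC2, had a log2 fold change of 0.94 (SE 0.41, adjusted p = 0.383). Of the genes for kinases, ubiquitin ligases and other modifiers of clock proteins, 11 of 12 were tested, 7 were higher and 4 lower, 0 were called by edgeR, DESeq2 or limma-voom and 1 had an unadjusted p under 0.05 in edgeR, where 11.9% of all genes tested did, with a median log2 fold change of 0.11. Among those with the lowest p were Fbxw11 (-0.35, SE 0.18, adjusted p = 0.478), which encodes a ubiquitin ligase subunit that marks PER proteins for degradation, and Nono (-0.32, SE 0.21, adjusted p = 0.619), which encodes a partner of PER.

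Of 12 genes with known daily rhythms in many tissues, of which Usp2 is also among the modifiers and Tsc22d3 and Klf9 among the glucocorticoid targets below, all were tested, 9 were higher and 3 lower, 1 was called and the median log2 fold change was 0.37. The gene called was Tspan4, which encodes a tetraspanin. It was at 52.6, 53.3, 65.0 and 53.1 CPM in WT and at 130.4, 98.4, 118 and 125 CPM in Pdgfra-Cre:LmnaF/F (log2 fold change 1.07, SE 0.19, adjusted p = 0.0316). Its spread was small in both groups and they did not overlap. It was called without WT replicate 3 or without Pdgfra-Cre:LmnaF/F replicate 2 or 4 but not when any other single library was left out, with adjusted p up to 0.117 over the alternatives. Nampt, which encodes the enzyme that limits NAD+ salvage, was at 49.3, 96.1, 44.6 and 65.4 CPM in WT and at 67.2, 93.6, 163 and 453 CPM in Pdgfra-Cre:LmnaF/F (1.62, SE 0.48, adjusted p = 0.181). Pdk4, which encodes a kinase that inhibits pyruvate dehydrogenase, was at 10.46, 19.6, 7.67 and 14.2 CPM in WT and at 7.96, 12.6, 49.8 and 159 CPM in Pdgfra-Cre:LmnaF/F (2.18, SE 0.71, adjusted p = 0.219). Without Pdgfra-Cre:LmnaF/F replicate 4 the log2 fold changes of Nampt and Pdk4 were 0.77 and 0.87, and without the filter on low counts edgeR called both.

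Glucocorticoid target genes were examined beside the clock genes because glucocorticoids induce Per1 and set the phase of peripheral clocks. Of 13 listed, Per1 included, 12 were tested, 11 were higher and 1 lower in Pdgfra-Cre:LmnaF/F, 0 were called by edgeR, DESeq2 or limma-voom and 5 had an unadjusted p under 0.05 in edgeR, where 11.9% of all genes tested did, with a median log2 fold change of 0.97. Their summed level was 2075, 3913, 2206 and 2250 CPM in WT and 2219, 2199, 4426 and 9134 CPM in Pdgfra-Cre:LmnaF/F. It was thus high in WT replicate 2 and in Pdgfra-Cre:LmnaF/F replicates 3 and 4, and Pdgfra-Cre:LmnaF/F replicates 1 and 2 lay within the range of the other 3 WT libraries. The 3 genes with the lowest p were Mt1 (1.78, SE 0.47, adjusted p = 0.134), a metallothionein, Sgk1 (1.29, SE 0.41, adjusted p = 0.209), a kinase, and Pik3ip1 (1.197, SE 0.49, adjusted p = 0.357), an inhibitor of PI3 kinase. Without Pdgfra-Cre:LmnaF/F replicate 4 the log2 fold changes of Mt1, Sgk1 and Pik3ip1 were 1.02, 0.85 and 0.17, and without the filter on low counts edgeR called Mt1 and Sgk1. Sgk1 was at 111, 139.9, 87.2 and 120.2 CPM in WT and at 113, 111, 394 and 502 CPM in Pdgfra-Cre:LmnaF/F. The 3 libraries highest in Per1, Pdgfra-Cre:LmnaF/F replicates 4 and 3 and WT replicate 2, were also the 3 highest for 7 of the 11 other glucocorticoid targets tested, a tally made after the values were seen. These were Tsc22d3, Fkbp5, Sgk1, Klf9, Errfi1, Ddit4 and Mt1, and the 4 with another order were Zbtb16, Dusp1, Cebpd and Pik3ip1. Pik3ip1 was at 40.2, 19.6, 45.1 and 38.8 CPM in WT and at 35.4, 45.6, 41.6 and 211 CPM in Pdgfra-Cre:LmnaF/F, WT replicate 2 being its lowest library. Tsc22d3, which encodes the glucocorticoid-induced leucine zipper, was at 333, 928, 265 and 434 CPM in WT and at 291, 303, 777 and 3066 CPM in Pdgfra-Cre:LmnaF/F.

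Dbp and Arntl did not follow that order, since Pdgfra-Cre:LmnaF/F replicate 1, which had the highest Dbp and the lowest Arntl of all 8 libraries, had Tsc22d3 at 291 CPM, inside the WT range. Pdgfra-Cre:LmnaF/F replicates 3 and 4 had the highest glucocorticoid sums of all libraries, at clock contrasts of 1.31 and 2.83. WT replicate 2 had the highest sum and the highest contrast (0.94) of the WT libraries. Pdgfra-Cre:LmnaF/F replicate 1 had the highest contrast of all (2.998) with a sum of 2219 CPM. The part of the glucocorticoid targets in the differences of the clock genes was not tested.

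Immediate-early and stress genes, which respond within minutes to stimuli such as tissue dissociation, were mostly higher in Pdgfra-Cre:LmnaF/F, and Per1 is known to respond to some of the same stimuli. Of 24 tested, 21 were higher, 3 were called by edgeR, all higher, 13 by DESeq2 and 9 by limma-voom, where these called 0.407%, 2.15% and 0.967% of all genes they tested. The groups did not overlap for 14, with higher levels in Pdgfra-Cre:LmnaF/F in each, where 4.06% of all genes tested were higher without overlap, and the median log2 fold change was 1.31. Those called were Btg2 (2.08, SE 0.37, adjusted p = 0.0315), an antiproliferative gene, Ier3 (1.88, SE 0.31, adjusted p = 0.0221), and Nr4a1 (1.92, SE 0.39, adjusted p = 0.0471), an orphan nuclear receptor. Leaving out 1 library at a time they were called in 4, 5 and 1 of 8 fits. Fos, named after its values were seen, was at 542, 145, 922 and 465 CPM in WT and at 1438, 1831, 2472 and 1519 CPM in Pdgfra-Cre:LmnaF/F (1.80, SE 0.40, adjusted p = 0.0757). The summed level was 5086, 3392, 6625 and 4703 CPM in WT and 9210, 10166, 14638 and 9784 CPM in Pdgfra-Cre:LmnaF/F, so that the groups did not overlap. WT replicate 2 had the lowest sum while its Per1 was the third highest of all libraries, and Pdgfra-Cre:LmnaF/F replicate 2 had the second highest sum while its Per1 and Per3 were the lowest of its group. Pdgfra-Cre:LmnaF/F replicate 3, in turn, had the highest sum and the second highest Per1 and Per2 of all libraries. The part of these genes in the differences of the clock genes was not tested.

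**Figure D5:**
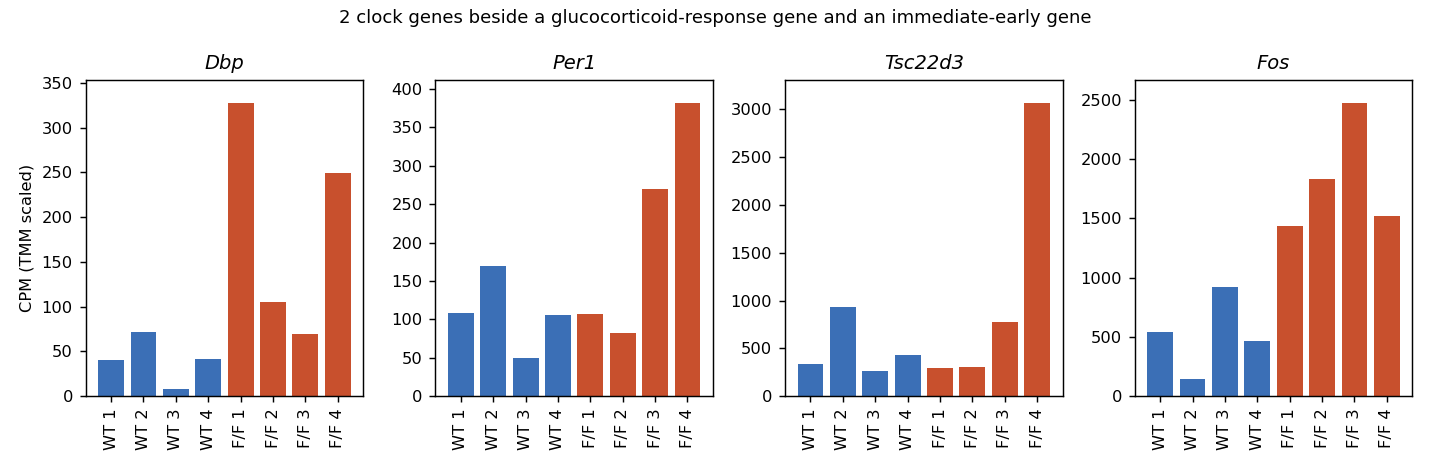
Level (TMM-scaled CPM, bars from 0, each gene on its own scale) of Dbp, Per1, the glucocorticoid target Tsc22d3 and the immediate-early gene Fos in each WT (blue) and Pdgfra-Cre:LmnaF/F (F/F, orange) library. WT replicate 2 is the highest WT library for Per1 at 169.6 CPM and for Tsc22d3 at 928 CPM and the lowest for Fos at 145 CPM, and Pdgfra-Cre:LmnaF/F replicate 1 is the highest of all for Dbp at 327 CPM.

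Markers of other cells were compared because cell types can differ in their clock gene levels. The summed level of 8 endothelial markers was 624 to 904 CPM in WT and 498 to 775 CPM in Pdgfra-Cre:LmnaF/F, with 7 of 8 markers lower. Pdgfra-Cre:LmnaF/F replicates 1 to 3, at 498 to 563 CPM, lay below all WT libraries, and replicate 4 was at 775 CPM. For 2 of the 8, Cdh5 (log2 fold change -1.17) and Tek (-0.59), the groups did not overlap. Of all genes tested, 3.97% were lower without overlap. Leukocyte markers summed to 44.4 to 180.2 CPM in WT and to 53.5 to 104 CPM in Pdgfra-Cre:LmnaF/F replicates 1 to 3, but to 439.9 CPM in replicate 4, the library with the highest cardiac myocyte sum. Mural cell markers summed to 266 to 432 CPM in WT and 224 to 436 CPM in Pdgfra-Cre:LmnaF/F, Schwann cell markers to 28 to 54 and 33 to 57 CPM, and epicardial and mesothelial markers to 11 to 46 and 7 to 16 CPM. None of these markers was at 0 in all libraries, and edgeR called none of the cell type markers, 4 of them having an unadjusted p under 0.05, the level passed by 11.9% of all genes tested, while DESeq2 called 1, the endothelial marker Tek, and limma-voom 0. Leaving out Pdgfra-Cre:LmnaF/F replicate 4 gave log2 fold changes of 1.78 for Per3, 1.33 for Nr1d2, 2.09 for Dbp, -1.43 for Arntl, -1.44 for Npas2, 1.12 for Per2 and 0.45 for Cry1, but 0.50 for Per1, 0.13 for Nr1d1 and 1.02 for Ciart, and Npas2 was then not called.

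The genes outside the 10 whose level followed the clock contrast most closely were ranked among 9479 genes with a mean of at least 10 CPM, by Pearson r over the 8 libraries after each genotype mean was subtracted. The highest were Qsox2 (0.96), Rpap1 (0.96), Otud5 (0.96), Itpr3 (0.95) and Ctsz (0.95), and the lowest were Pja1 (-0.99), Ash2l (-0.97), Kazald1 (-0.97), Smurf2 (-0.97) and Ift122 (-0.97). An r of at least 0.9 was reached by 43 genes and one of at most -0.9 by 49, and none of those named was called between the genotypes. Of the listed clock genes outside the 10, 30 were among the genes ranked, 19 with a positive and 11 with a negative r, and their median r was 0.33. The ends of that list were described after the values were seen. Csnk1e, a kinase gene of the PER proteins, ranked 19 from the top (0.93), Tef 78 (0.87), Hlf 108 (0.85) and Por 157 (0.83), while Clock stood at the opposite end at rank 9448 (-0.92), followed by Csnk2a1 (-0.67) and Nfil3 (-0.64). Tspan4, although called, had an r of 0.32 within the genotypes. Among the 10 genes themselves, which make up the contrast, r was highest for Per3 (0.88) and Dbp (0.84) and lowest for Arntl (-0.82), and it was 0.60 for Per1 and 0.48 for Nr1d2. All these values rest on the same 8 libraries, share their depth and composition, and are given without a test.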

How the data were processed

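PDGFRA-positive, lineage-negative ventricular cells of 4 WT and 4 Pdgfra-Cre:LmnaF/F mice were analysed, as 1 library per mouse, grouped by the sample labels. The authors depleted ribosomal RNA, sequenced stranded libraries (RIN above 8) as 150 bp paired reads, aligned them to mm10 with HISAT2 and counted GENCODE genes with featureCounts. The submitters' processing notes name FastQC and DESeq2. The deposited values are whole-number counts per gene symbol, unscaled, and the RUV step named by the study is not in them. The files list 18957 genes, the lowest with 4 counts over all libraries.

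Counts were scaled with TMM factors and filtered with filterByExpr. The 13036 genes left were fitted in edgeR 4.0.16 (R 4.3.3) by quasi-likelihood, with a term for genotype and no other, and p-values were adjusted by Benjamini-Hochberg over all of them. Calls have an adjusted p under 0.05. The lists were written from general knowledge. The 10 clock genes and all lists were chosen with earlier results of these data known. Genes named besides the 10 and Lmna were those called and the 3 with the lowest p in each pathway or companion list, and the 5 highest and 5 lowest by likeness to the clock contrast. Clock, Cry2, Fos, Csnk1e, Csnk2a1, Por, Nfil3, Tek, Cdh5, Sphk2, Thra and the glucocorticoid targets named for their order across libraries were named outside this rule, after their values were seen. 1 gene that this rule names is not reported here. The procedure was tested on simulated counts. Floors (3 counts) cover counting error only, while the SDs and SEs also take in variation between libraries. That the mice are separate animals is taken from the study's methods.

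Alternatives were DESeq2 1.42.0, limma-voom (limma 3.58.1) with quality weights, upper-quartile or RLE factors, all genes without a filter, at least 10 counts in every library, 1 RUVr factor, a replicate block, and leaving out each library. For the clock contrast they were RLE and upper-quartile factors, a prior count of 0.5, the median in place of the mean and counts thinned to the smallest library. Leaving out WT replicate 2 with Pdgfra-Cre:LmnaF/F replicate 4, or Ciart or Cry1 from the contrast, was added after the data were seen. Gene positions and exon lengths came from GENCODE M21, and promoter sequences, read in Python 3.11.15, from RefSeq on GRCm38.p6.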

Additional observations from a re-analysis of the deposited data

Results flagged for a closer look

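In groups of 4 libraries, a library was noted where its gap to the nearest of the others exceeded 0.829 of the range of its group. This was the case in 9 of 92 groups checked, and chance gives about 1 in 20. Among the clock genes, Per2 in WT replicate 2 was at 6.03 log2 CPM, with the nearest WT library at 4.27, and Per3 in Pdgfra-Cre:LmnaF/F replicate 2 was at 6.19, with the nearest at 7.22. The first lay toward the Pdgfra-Cre:LmnaF/F libraries and the second toward the WT libraries. Tspan4 in WT replicate 3 was at 6.03 log2 CPM (nearest 5.74), Pik3ip1 in Pdgfra-Cre:LmnaF/F replicate 4 at 7.72 (nearest 5.52) and Ier3 in Pdgfra-Cre:LmnaF/F replicate 3 at 6.43 (nearest 5.69).

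Of the summed lists, the glucocorticoid targets in WT replicate 2 summed to 3913 CPM, with the nearest WT library at 2250.2 CPM. In Pdgfra-Cre:LmnaF/F replicate 4 the cardiac myocyte markers summed to 5699 CPM (nearest 886) and the leukocyte markers to 439.9 CPM (nearest 104). The Schwann cell markers summed to 54.5 CPM in WT replicate 3 (nearest 31.7). WT replicates 2 and 3 and Pdgfra-Cre:LmnaF/F replicate 4 thus each occur more than once, and the report gives the clock genes without each of them. The part of these libraries' features in the clock gene differences was not tested beyond those values.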

How the results depend on the processing

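The number of genes called was 53 and moved by over 1.5 times with DESeq2 (309), limma-voom (126), no filter (274) and 1 RUVr factor (82), and lay between 13 and 76 when 1 library was left out. The number of the 33 other clock genes called was 3, and was 5 with no filter, 0 with the replicate block, 1 with WT replicate 2 and Pdgfra-Cre:LmnaF/F replicate 4 left out together, and 0 to 3 when 1 library was left out. With no block 3 of the 10 clock genes were called, or 6 with limma-voom or no filter, 4 with DESeq2 or 1 RUVr factor and 2 with upper-quartile factors, and with the replicate block 36 genes in all and 1 of the 10 (Dbp) were called. The replicate numbers were not taken as pairs, because deviations of same-numbered libraries correlated at -0.030 to 0.040. The clock contrast difference of 2.18 kept its direction in all 17 alternatives, from 1.80 to 3.02. The fold changes of the 10 clock genes kept their sign in all alternatives except that of Cry1. Genes that were not called changed sign in 6 cases. When 1 library was left out, Itpr3 lay between -0.24 and 0.23 and Pja1 between -0.083 and 0.25, and with WT replicate 2 and Pdgfra-Cre:LmnaF/F replicate 4 left out together Pik3ip1 was at -0.019. The cause was not tested. Ciart, with 0 to 387 counts per library, is limited by its low counts.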
